A study of Mus musculus with 16 samples.

Results

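Hap1, Zfhx3, Abat, Lrrn2, Strip2, Car3, Map3k8 and Mab21l2 are 8 autosomal genes chosen by their lower counts in hearts that had lost 3 of the 4 alleles of Ing4 and Ing5 than in wild-type hearts. They are 8 of the 27179 gene IDs in the count table and 8 of the 15785 genes with enough reads to be tested; no member was removed by the filter on low counts. RNA was sequenced from whole mouse hearts at embryonic day 10.5, 4 embryos of each of 4 genotypes. The wild-type hearts were Ing4+/+ Ing5+/+, the Ing4+/- hearts lacked 1 Ing4 allele and were Ing5+/+, the Ing5-/- hearts lacked both Ing5 alleles and were Ing4+/+, and the Ing4+/- Ing5-/- hearts carried both losses. Each library is 1 heart, and the labels name neither the strain nor the part of each gene that was deleted. Level here means CPM, the reads of a gene divided by the size of its library, with TMM scaling, with mean ± SD over 4 hearts; a log2 fold change is given ± SE from the edgeR fit to all 16 hearts.

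ING4 and ING5 carry a PHD finger, a domain that binds histone H3 when it is methylated near the start of active genes. They act as subunits of acetyltransferase complexes built on the enzymes HBO1 and, for ING5, MOZ or MORF, which add acetyl groups to histones. Acetylated histones are a mark of open and transcribed chromatin. At the stage sampled the heart is a beating looped tube, and cells from the proepicardium, a cluster at its venous pole, are spreading over it to form the epicardium.

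The members share no pathway by what is known of them. Zfhx3 encodes a very large zinc finger and homeobox transcription factor, and variants at the human gene are associated with atrial fibrillation. Mab21l2 is a developmental gene needed for the eye, the ventral body wall and, through the septum transversum and proepicardium, the heart and liver. Map3k8 encodes TPL2, a kinase that relays signals of Toll-like and TNF receptors to MEK and ERK. Strip2 encodes a subunit of STRIPAK complexes, which join the phosphatase PP2A to kinases of the Hippo pathway. Hap1 encodes the huntingtin-associated protein that links vesicles to microtubule motors, and Lrrn2 a neuronal membrane protein with leucine-rich repeats. Abat encodes the mitochondrial GABA transaminase, which degrades the transmitter GABA, and Car3 a carbonic anhydrase of low activity that is abundant in slow skeletal muscle and fat.

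RefSeq (GRCm38.p6) listed a promoter window for 5 of the 8 members, from 250 bases before to 50 bases after the first listed start. Those of 4 are shown because ING proteins bind chromatin near gene starts and because the members were lower in the same hearts; no binding or histone mark was measured here. The windows are chr11:100356092-100356391 on the minus strand for Hap1, chr1:132880105-132880404 on the plus strand for Lrrn2, chr6:29916763-29917062 on the plus strand for Strip2 and chr3:86548234-86548533 on the minus strand for Mab21l2. Capitals mark the letters TATAAA, a core of the TATA box, and the letters ACGTG. A search for CACGTG, the E-box, which overlaps the latter, was made too, and each motif was looked for on both strands.
Hap1: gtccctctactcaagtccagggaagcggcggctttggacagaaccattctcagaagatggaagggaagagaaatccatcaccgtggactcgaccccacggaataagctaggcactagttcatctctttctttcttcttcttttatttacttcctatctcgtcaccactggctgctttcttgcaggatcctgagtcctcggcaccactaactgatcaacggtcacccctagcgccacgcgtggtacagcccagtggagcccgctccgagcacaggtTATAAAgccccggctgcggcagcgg
Lrrn2: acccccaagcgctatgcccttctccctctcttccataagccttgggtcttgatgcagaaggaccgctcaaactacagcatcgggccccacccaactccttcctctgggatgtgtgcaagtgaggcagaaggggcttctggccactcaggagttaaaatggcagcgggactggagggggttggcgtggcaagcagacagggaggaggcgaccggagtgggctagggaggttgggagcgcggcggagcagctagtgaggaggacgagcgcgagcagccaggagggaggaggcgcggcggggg
Strip2: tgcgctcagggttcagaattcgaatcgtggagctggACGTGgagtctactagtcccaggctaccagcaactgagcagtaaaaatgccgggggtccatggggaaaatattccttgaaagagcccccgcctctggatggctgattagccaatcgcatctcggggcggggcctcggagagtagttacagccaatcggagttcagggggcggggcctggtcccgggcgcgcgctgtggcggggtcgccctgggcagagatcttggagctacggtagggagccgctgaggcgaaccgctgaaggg
Mab21l2: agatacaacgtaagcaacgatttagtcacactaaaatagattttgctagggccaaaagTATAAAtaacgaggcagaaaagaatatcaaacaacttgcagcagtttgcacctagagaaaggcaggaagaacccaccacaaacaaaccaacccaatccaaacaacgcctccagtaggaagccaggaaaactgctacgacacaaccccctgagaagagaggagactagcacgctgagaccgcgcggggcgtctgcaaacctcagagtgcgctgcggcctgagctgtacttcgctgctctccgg
Of these 4, Mab21l2 held TATAAA at position -192 and Hap1 at +26 from the listed start, and Strip2 held ACGTG at -214. Lrrn2 held none of these letters, and neither did the window of Zfhx3. The listed starts of Zfhx3, Hap1 and Strip2 lie inside the annotated genes. Over 27025 RefSeq promoters of the same length, 14.2% held the TATA box letters, 19.7% held ACGTG and 7.24% held the E-box. The ratio of observed to expected CpG was 0.544 in Lrrn2, 0.727 in Hap1, 0.761 in Mab21l2 and 0.793 in Strip2, against a median of 0.389 over all promoters. It was 0.626 in Zfhx3, so 4 of the 5 windows lay above 0.6, as did 36.4% of all promoters. These are descriptions of the windows only.

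The libraries held 19753100 to 35664331 counted reads. The genotype labels were checked against the targeted genes. Ing5 stood at 28.9 to 42.3 CPM in the 8 hearts with both Ing5 alleles intact and at 18.5 to 29.3 CPM in the 8 Ing5-/- and Ing4+/- Ing5-/- hearts, and Ing4 at 32.0 to 36.3 CPM in Ing4+/- and 32.5 to 36.2 CPM in Ing4+/- Ing5-/- hearts against 28.2 to 44.4 CPM in wild-type and 43.5 to 60.7 CPM in Ing5-/- hearts. For both genes the ranges of hearts with and without the loss overlapped. Counts are summed over whole genes, so remaining reads do not measure remaining protein. Heart muscle genes were abundant, as the tissue label says: in wild-type hearts Actc1 stood at 10400 CPM, Myh6 at 4770 CPM and Nkx2-5 at 364 CPM on average. Ing4+/- 4, Ing5-/- 1 and Ing4+/- Ing5-/- 2 stood apart from the other hearts in earlier results of these data. Results without them are given where they change the call of a member. This covers Ing4+/- Ing5-/- against wild-type and Ing5-/- against Ing4+/- hearts. There were 7 litters, none of which gave hearts of both the wild-type and the Ing5-/- genotype. The labels name separate hearts as replicates, so the spread includes differences between embryos.

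All 8 members were low or moderate in level. Scaled to the deposited gene length, the mean over the 16 hearts ran from 1.02 CPM per kb for Zfhx3, at the percentile 19.2 of the genes tested, to 14.0 CPM per kb for Abat, at the percentile 63.5. Mab21l2 stood at 7.59, Strip2 at 5.11, Car3 at 4.56, Map3k8 at 3.92, Lrrn2 at 3.41 and Hap1 at 2.42 CPM per kb. Raw counts were never near 0: the lowest was 90 reads of Car3 and the highest 2292 of Abat.

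All 8 genes are protein-coding, and they lie on 7 chromosomes (GRCm38). Zfhx3 (gene ID 11906) spans chromosome 8: 108279311 to 108961636 and Mab21l2 (23937) chromosome 3: 86546050 to 86548283. Map3k8 (26410) spans chromosome 18: 4331325 to 4352953 and Strip2 (320609) chromosome 6: 29916976 to 29959681. Hap1 (15114) spans chromosome 11: 100347327 to 100356982 and Lrrn2 (16980) chromosome 1: 132880355 to 132940005. Abat (268860) spans chromosome 16: 8513429 to 8621568 and Car3 (12350) chromosome 3: 14863538 to 14872381. Lrrn2 and Ing5 are on the same chromosome, 39.1 Mb apart, and Strip2 and Ing4 are 95.1 Mb apart.

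Since the members were picked for being lower in Ing4+/- Ing5-/- than in wild-type hearts, that direction is a property of the choice and carries no test. Against wild-type the mean level was 43.9% to 64.7%, with a median of 60.0%, in Ing4+/- Ing5-/- hearts. In Ing5-/- hearts it was 70.1% to 93.6%, with a median of 76.8%, and in Ing4+/- hearts 73.4% to 111%, with a median of 100%. For 6 of the 8 genes the Ing4+/- mean lay within 10% of the wild-type mean. In whole hearts, fewer cells of a type and less RNA per cell cannot be told apart.

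**Figure D1:**
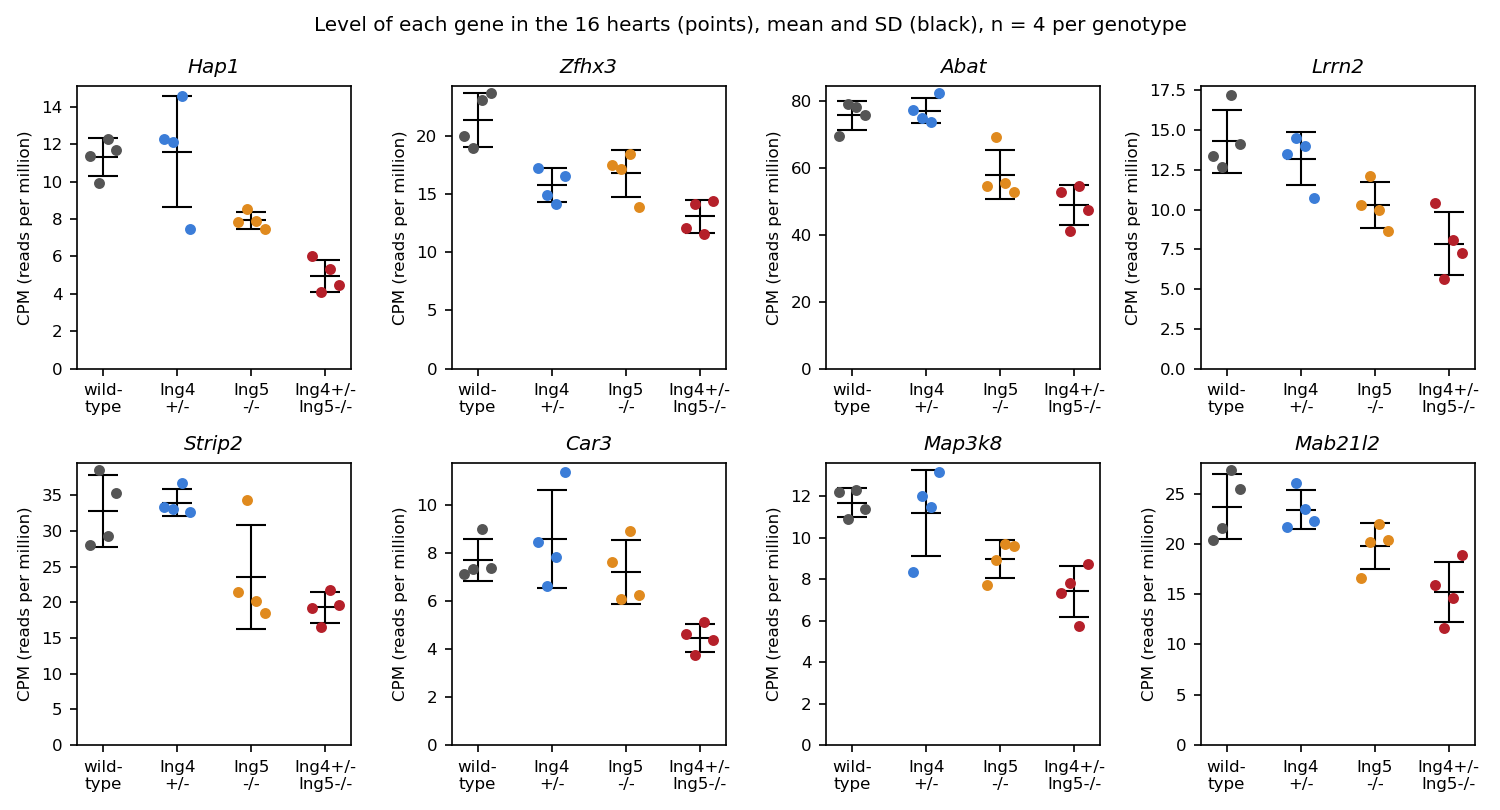
Level of each of the 8 genes in CPM (y axis, from 0) in each of the 16 hearts (points), grouped by genotype on the x axis, with the mean and SD in black (n = 4). In each panel the Ing4+/- Ing5-/- mean is the lowest and all 4 of its hearts lie below the 4 wild-type hearts. The genes were chosen for lower counts in that contrast, so nothing is read from this. Zfhx3 is the gene whose 4 Ing4+/- hearts also lie below all wild-type hearts.

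Among the nuclear and developmental factors, Zfhx3 differed from the other members in Ing4+/- hearts. Its level was 20, 19.0, 23.1 and 23.7 CPM in the wild-type hearts (21.4 ± 2.32) and 17.3, 14.9, 14.2 and 16.6 CPM in the Ing4+/- hearts (15.8 ± 1.46). It was 17.5, 17.2, 18.5 and 13.9 CPM in the Ing5-/- hearts (16.8 ± 2.02) and 12.1, 14.2, 11.6 and 14.4 CPM in the Ing4+/- Ing5-/- hearts (13.1 ± 1.41). All 12 mutant hearts lay below the lowest wild-type heart, and the 3 mutant genotypes overlapped each other. This separation includes the hearts that picked the gene and has no share of all genes beside it. The log2 difference from wild-type was -0.71 ± 0.12 in Ing4+/- Ing5-/- hearts, -0.45 ± 0.12 in Ing4+/- hearts and -0.36 ± 0.12 in Ing5-/- hearts. These 3 values share the wild-type hearts.

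Mab21l2 had 20.4, 21.6, 27.3 and 25.5 CPM in the wild-type hearts (23.7 ± 3.22) and 21.7, 26.0, 23.5 and 22.3 CPM in Ing4+/- hearts (23.4 ± 1.91). The values were 16.6, 20.2, 22.0 and 20.4 CPM in Ing5-/- (19.8 ± 2.28) and 15.9, 11.6, 14.6 and 18.9 CPM in Ing4+/- Ing5-/- hearts (15.2 ± 3.02). The order of the means was Ing4+/- Ing5-/-, Ing5-/-, Ing4+/-, wild-type, and each neighbouring pair in it overlapped. Its log2 difference from wild-type was -0.64 ± 0.13 in Ing4+/- Ing5-/-, -0.26 ± 0.13 in Ing5-/- and -0.02 ± 0.13 in Ing4+/- hearts. The exons of Mab21l2 overlap those of Lrba on the opposite strand over 1097 bases in the GENCODE M21 annotation. The library kit keeps strand, but the strand setting of the counting is not given in the sources used here, so reads of the 2 genes may not be separated. Lrba had 32.8 CPM in wild-type hearts and 27.8 CPM in Ing4+/- Ing5-/- hearts (log2 fold change -0.24 ± 0.09, edgeR adjusted p = 0.277).

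Of the signalling genes, Map3k8 had a narrow spread in wild-type hearts, at 12.2, 10.9, 12.3 and 11.4 CPM (11.7 ± 0.693). The Ing4+/- hearts had 8.35, 12, 11.5 and 13.2 CPM (11.2 ± 2.06), with 1 heart below the wild-type range. It stood at 7.71, 8.93, 9.71 and 9.59 CPM in Ing5-/- (8.98 ± 0.918) and 7.35, 7.80, 5.76 and 8.72 CPM in Ing4+/- Ing5-/- hearts (7.41 ± 1.24). Every heart of both Ing5-/- genotypes lay below every wild-type heart, while these 2 genotypes overlapped each other. Hearts that picked the gene are part of this separation, and no share of all genes was computed for it. On the log2 scale Map3k8 differed from wild-type by -0.66 ± 0.15 in Ing4+/- Ing5-/-, -0.38 ± 0.15 in Ing5-/- and -0.06 ± 0.15 in Ing4+/- hearts.

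Strip2 stood at 28.1, 38.5, 29.3 and 35.4 CPM in wild-type (32.8 ± 4.99) and 33.4, 33.1, 36.8 and 32.7 CPM in Ing4+/- hearts (34.0 ± 1.88). In Ing5-/- hearts 3 values, 21.4, 20.2 and 18.5 CPM, lay close together and below all wild-type hearts, and Ing5-/- 2 had 34.4 CPM, inside the wild-type range (23.6 ± 7.30 over the 4). In Ing4+/- Ing5-/- hearts it stood at 19.2, 16.6, 21.8 and 19.7 CPM (19.3 ± 2.15). For Strip2 the log2 difference against wild-type was -0.76 ± 0.16 in Ing4+/- Ing5-/-, -0.47 ± 0.16 in Ing5-/- and 0.05 ± 0.16 in Ing4+/- hearts.

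Hap1, the vesicle transport protein, had the lowest share of its wild-type level among the 8. Its level was 11.4, 9.91, 12.3 and 11.7 CPM in wild-type hearts (11.3 ± 1.02) and 6.00, 4.11, 5.31 and 4.47 CPM in Ing4+/- Ing5-/- hearts (4.97 ± 0.851). The Ing5-/- hearts lay between them without overlap with either, at 7.87, 8.54, 7.89 and 7.46 CPM (7.94 ± 0.447). In Ing4+/- hearts 3 values, 12.3, 12.1 and 14.6 CPM, lay above 3 of the 4 wild-type hearts, and Ing4+/- 4 had 7.49 CPM, near the Ing5-/- hearts (11.6 ± 2.97 over the 4). The coefficient of variation of those 4 hearts was 25.6%, against 5.81% from counting alone. The log2 difference from wild-type was -1.18 ± 0.17 in Ing4+/- Ing5-/-, -0.51 ± 0.17 in Ing5-/- and 0.04 ± 0.17 in Ing4+/- hearts.

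Lrrn2, the membrane protein, stood at 13.4, 12.7, 17.2 and 14.1 CPM in wild-type (14.3 ± 1.98) and 13.5, 14.5, 14.0 and 10.7 CPM in Ing4+/- hearts (13.2 ± 1.68). The values were 10.3, 12.1, 9.95 and 8.64 CPM in Ing5-/- (10.3 ± 1.43) and 10.4, 5.64, 8.06 and 7.30 CPM in Ing4+/- Ing5-/- hearts (7.85 ± 1.98). As for Hap1, Ing4+/- 4 was the lowest Ing4+/- heart and Ing4+/- Ing5-/- 2 the lowest of all 16. The log2 difference from wild-type was -0.87 ± 0.17 in Ing4+/- Ing5-/-, -0.48 ± 0.16 in Ing5-/- and -0.12 ± 0.16 in Ing4+/- hearts.

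Of the enzymes, Abat did not overlap between the hearts with and without Ing5. That split includes the hearts that picked the gene, and no share of all genes was computed for it. Its level was 69.5, 79.1, 78.3 and 75.8 CPM in wild-type (75.7 ± 4.34) and 77.2, 75.0, 73.7 and 82.4 CPM in Ing4+/- hearts (77.1 ± 3.81). It was 54.7, 69.1, 55.4 and 52.9 CPM in Ing5-/- (58.0 ± 7.43) and 52.7, 41.2, 54.6 and 47.5 CPM in Ing4+/- Ing5-/- hearts (49.0 ± 5.98). The 8 hearts with intact Ing5 ran from 69.5 to 82.4 CPM and the 8 without from 41.2 to 69.1 CPM, so all 8 lay below, by a small gap at Ing5-/- 2. Against wild-type the log2 fold change of Abat was -0.63 ± 0.09 in Ing4+/- Ing5-/-, -0.38 ± 0.09 in Ing5-/- and 0.03 ± 0.09 in Ing4+/- hearts.

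Car3 was lower in Ing4+/- Ing5-/- hearts than in every heart of the other 3 genotypes, which overlapped one another. The hearts that picked Car3 are among them, and no share of all genes was computed for this separation. It stood at 7.14, 7.35, 9.03 and 7.38 CPM in the wild-type hearts (7.73 ± 0.873), 8.46, 6.62, 7.83 and 11.4 CPM in Ing4+/- (8.58 ± 2.04) and 7.64, 6.09, 8.92 and 6.26 CPM in Ing5-/- hearts (7.23 ± 1.33). In Ing4+/- Ing5-/- hearts it stood at 4.64, 3.74, 5.13 and 4.38 CPM (4.47 ± 0.580). Against wild-type Car3 had a log2 fold change of -0.79 ± 0.18 in Ing4+/- Ing5-/-, -0.10 ± 0.18 in Ing5-/- and 0.15 ± 0.18 in Ing4+/- hearts. The Ing4+/- Ing5-/- value less the sum of the 2 single differences was -0.84 ± 0.25 for Car3 and -0.71 ± 0.24 for Hap1, the largest in size among the 8; the others ran from -0.36 to 0.09. These departures rest on the hearts used to pick the genes and have no test.

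In the order of the levels, all 8 genes had their lowest mean in Ing4+/- Ing5-/- hearts, and the next was Ing5-/- for 7 genes and Ing4+/- for Zfhx3. All 4 Ing4+/- Ing5-/- hearts lay below all wild-type hearts for 8 of 8 members, against 4.71% of all genes tested; the choice of the genes used this contrast, and nothing is read from it. They lay below all Ing4+/- hearts for 6 members, all but Zfhx3 and Map3k8 (4.88% of all genes). They lay below all Ing5-/- hearts for 2, Hap1 and Car3 (1.64%). The Ing5-/- hearts lay below all wild-type hearts for 5, Hap1, Zfhx3, Abat, Lrrn2 and Map3k8 (2.26%), and the Ing4+/- hearts for 1, Zfhx3 (2.04%). These counts all share hearts with the contrast that picked the genes and are given as description. The same holds for the separations over more than 2 genotypes given above for Zfhx3, Map3k8, Abat and Car3, for which no share of all genes was computed. With edgeR at a Benjamini-Hochberg adjusted p under 0.05, 25 genes (0.158%) were called lower in Ing4+/- Ing5-/- than in wild-type hearts, and the 8 members are among these 25. With litter as a block edgeR called 2 genes lower, none of them a member. Without wild-type 3 or without Ing4+/- Ing5-/- 2 it called 10 lower, with 3 members, Hap1, Zfhx3 and Abat, among them. Without the 3 hearts that stood apart it called 110 lower, with 7 members, all but Strip2, among them. The rule gave no threshold, and other genes of the 25 were not members: among autosomal ones they ran from Itgb8, with a log2 fold change of -0.87 ± 0.20, to Ugp2, with -0.30 ± 0.06.

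**Figure D2:**
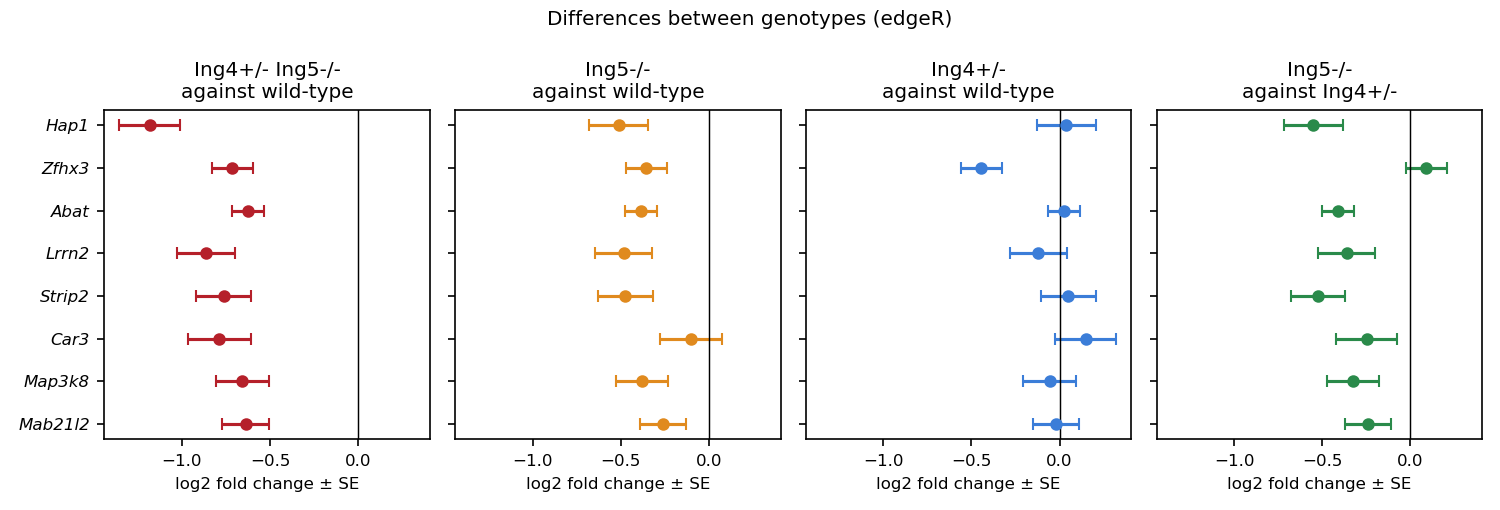
Log2 fold change ± SE (x axis) of each of the 8 genes (y axis) in 4 comparisons between genotypes, from the edgeR fit to 16 hearts. The left panel is the contrast that picked the genes; in the right panel, Ing5-/- against Ing4+/-, 7 of the 8 values are below 0, from -0.55 for Hap1 to -0.24 for Mab21l2, and Zfhx3 is at 0.09.

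The comparison of Ing5-/- with Ing4+/- hearts is the one pair of genotypes in which no heart was used to pick the members. It asks whether losing both Ing5 alleles and losing 1 Ing4 allele differ in their effect on these genes. Abat had a log2 fold change of -0.41 ± 0.09 (95% interval -0.59 to -0.23, edgeR adjusted p = 0.0908), with every Ing5-/- heart below every Ing4+/- heart. Hap1 had -0.55 ± 0.17 (-0.88 to -0.22, edgeR adjusted p = 0.234) and Strip2 -0.52 ± 0.16 (-0.83 to -0.22, adjusted p = 0.215). The spread of these 2 genes held the 2 single hearts described above, Ing4+/- 4 for Hap1 and Ing5-/- 2 for Strip2. In an edgeR fit to the Ing5-/- and Ing4+/- hearts alone, whose spread does not use the other hearts, 0 genes were called. There the edgeR adjusted p was 0.409 for Abat and 0.647 for Hap1 and Strip2.

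In the same comparison Lrrn2 had a log2 fold change of -0.36 ± 0.16 (edgeR adjusted p = 0.376) and Map3k8 -0.32 ± 0.15 (adjusted p = 0.386). Mab21l2 had -0.24 ± 0.13, with an interval of -0.50 to 0.02 (edgeR adjusted p = 0.470), and Car3 -0.25 ± 0.17, with an interval of -0.59 to 0.09 (adjusted p = 0.588). Zfhx3 had 0.09 ± 0.12, with an interval of -0.14 to 0.32 (edgeR adjusted p = 0.791), and so did not share the sign of the other members. None of the 8 passed the threshold, and edgeR called 11 genes in all, or 0.0697% of those tested, in either direction.

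At an unadjusted edgeR p under 0.05 stood 5 of the 8 members, Abat, Strip2, Hap1, Lrrn2 and Map3k8, and 1947 genes, or 12.3%, of all. These p use the spread over all hearts, including those that picked the members, so nothing is read from the count. No such count is given for the fit to the Ing5-/- and Ing4+/- hearts alone. The median log2 fold change of the 8 was -0.34, against 0.01 over all genes, and the Ing5-/- hearts lay below all Ing4+/- hearts for 1 member, Abat, against 2.93% of all genes. With litter as a block in edgeR 0 genes were called, and the adjusted p was 0.490 for Abat, 0.553 for Strip2 and 0.634 for Hap1. DESeq2, which called 0.691% of all genes, called Abat (adjusted p = 0.0109). So did edgeR without Ing5-/- 2 (-0.51, adjusted p = 0.0209; 0.169% of all genes called) and without Ing4+/- Ing5-/- 2 (-0.41, adjusted p = 0.0492; 0.144%). Strip2 was called by edgeR without Ing5-/- 2 (-0.76, adjusted p = 0.0140), and Hap1 without the 3 hearts that stood apart (-0.70, adjusted p = 0.0348; 0.171%).

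Litter, the one batch the labels give, was compared within littermates. Litter 7 held 1 Ing5-/- and 1 Ing4+/- heart, and all 8 genes were lower in the Ing5-/- heart, by a median of 0.38 on the log2 scale (values from -0.87 to -0.01; 48.2% of all genes were lower). In it Strip2 stood at 18.5 against 32.7 CPM, Abat at 52.9 against 82.4 CPM, Car3 at 6.26 against 11.4 CPM and Hap1 at 7.46 against 7.49 CPM. This is 1 pair of embryos, with no replicate, and its Ing4+/- member is one of the hearts that stood apart.

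Litters 4 and 6 each held 1 Ing4+/- Ing5-/- and 1 wild-type heart. All 8 genes were lower in the former in both litters, with medians of -0.79 and -0.81 and ranges of -1.47 to -0.49 and -1.14 to -0.47; these hearts were among those that picked the genes. The Ing4+/- littermates were lower than wild-type for 3 genes in litter 4 (median 0.10) and 4 genes in litter 6 (median 0.00). Zfhx3 was lower in the Ing4+/- heart in both. Against Ing5-/- littermates, the Ing4+/- Ing5-/- heart was lower for 7 and 8 genes in the 2 pairs of litter 1 (medians -0.11 and -0.39) and for 6 genes in litter 7 (median -0.15). Of these 3 pairs 2 share the heart Ing4+/- Ing5-/- 1. In all 3, Hap1, Car3, Abat, Map3k8 and Mab21l2 were lower in the Ing4+/- Ing5-/- heart, Hap1 by 0.39, 0.51 and 0.74 and Car3 by 0.72, 0.39 and 0.51 on the log2 scale.

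**Figure D3:**
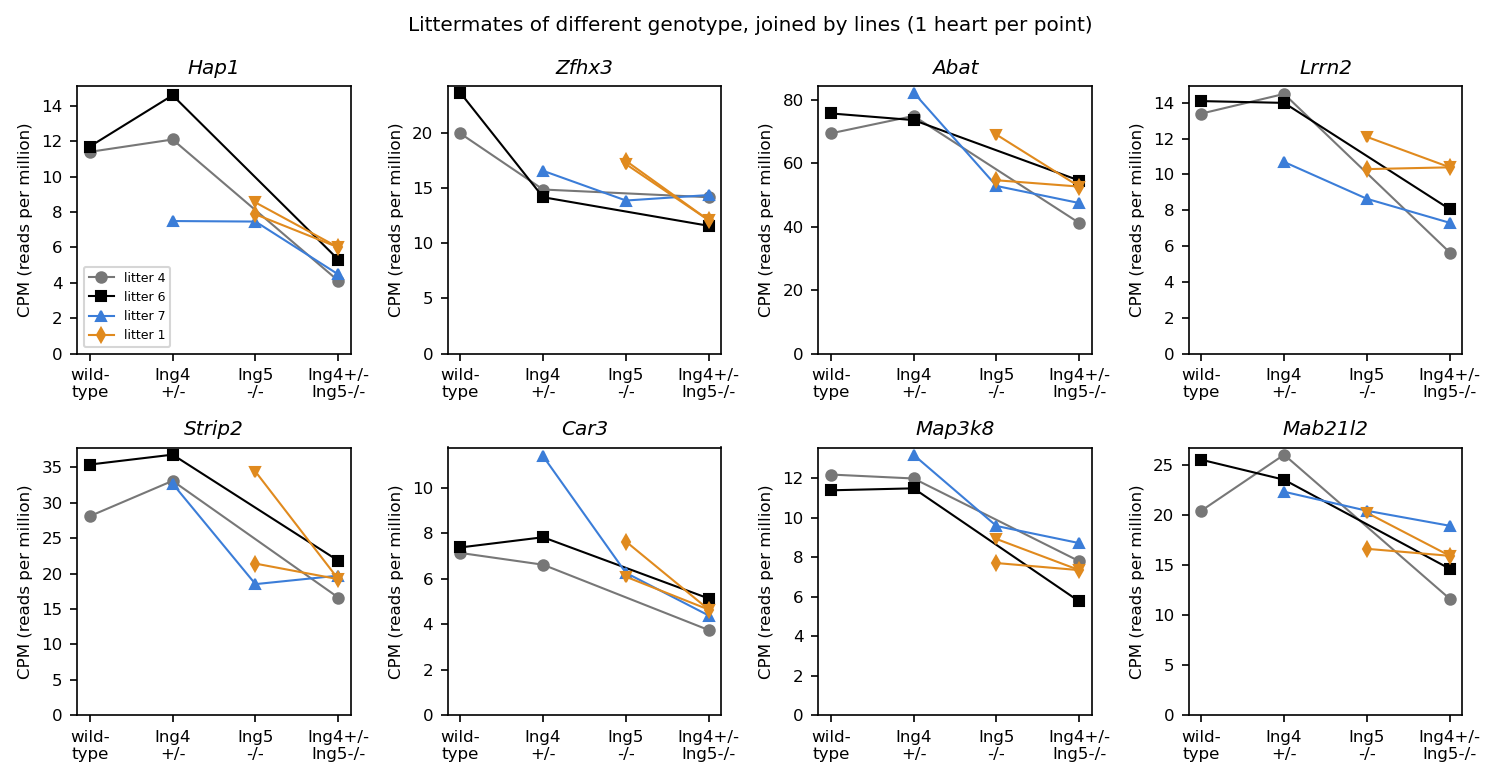
Level of each gene in CPM (y axis, from 0) by genotype (x axis), with each point 1 heart and lines joining littermates of litters 1, 4, 6 and 7. In litters 4 and 6 all 8 genes are lower in the Ing4+/- Ing5-/- than in the wild-type heart, and in litter 7 all 8 are lower in the Ing5-/- than in the Ing4+/- heart, Hap1 by 0.01 on the log2 scale.

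How the members varied together was described over the 16 hearts, which share the genotype differences. The median Pearson r over the 28 pairs of members was 0.70 in log2 CPM. With the genotype means taken out, the median was 0.12, with 11 pairs below 0, from -0.39 for Hap1 with Map3k8 to 0.79 for Hap1 with Lrrn2. The pairs above 0.5 were Hap1 with Lrrn2, Abat with Strip2 (0.77) and Abat with Lrrn2 (0.58). These r pool the 4 genotypes and do not show that a pair varied together in each of them. Of the Ing5-/- hearts, Ing5-/- 2 was the highest in both Abat (69.1 CPM) and Strip2 (34.4 CPM). Of the Ing4+/- hearts, Ing4+/- 4 was the highest in Abat (82.4 CPM) and the lowest in Strip2 (32.7 CPM). The weight of single hearts in these r was not tested.

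**Figure D4:**
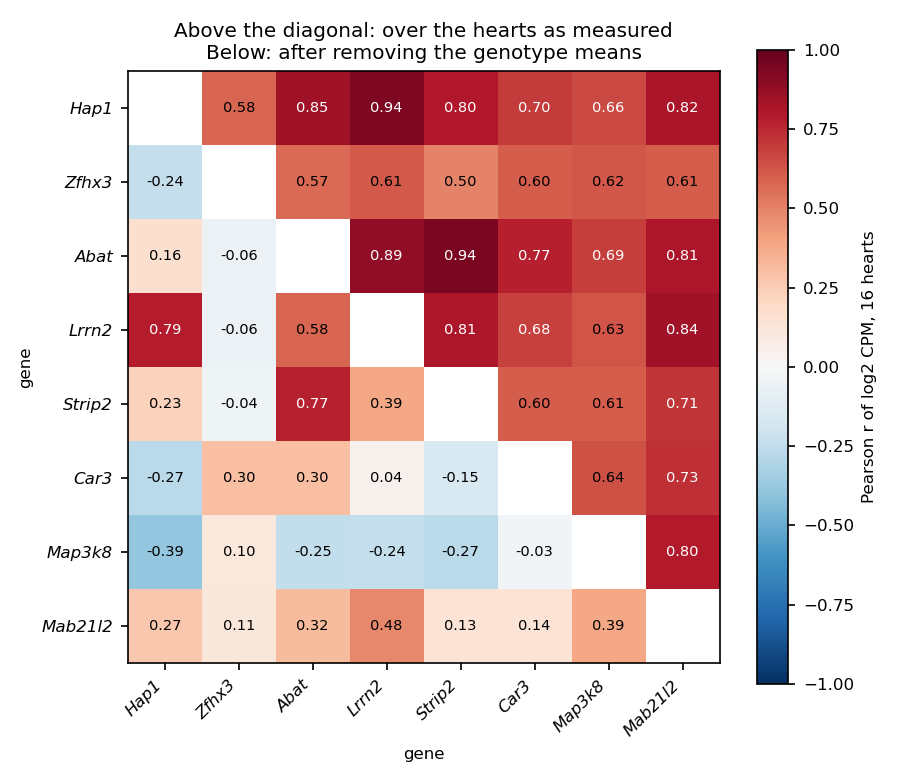
Pearson r of log2 CPM for each pair of the 8 genes over 16 hearts, above the diagonal as measured and below it after removal of the genotype means; the colour scale runs from -1 to 1. Values above the diagonal have a median of 0.70 and those below it 0.12, with Hap1 and Lrrn2 (0.79) and Abat and Strip2 (0.77) the highest below the diagonal.

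The genes most like each member were ranked by r over the 16 hearts among 12831 genes with at least 1 CPM on average; the second value is r with the genotype means taken out. For Hap1 they were Lrrn2 (0.94, 0.79) and Abr (0.90, 0.84), and for Lrrn2 they were Hap1 and Casp8 (0.91, 0.76). For Abat they were Zadh2 (0.94, 0.68) and Strip2 (0.94, 0.77), and for Strip2 they were Abat and Smpx (0.89, 0.90). For Zfhx3 they were Bicd1 (0.86, 0.52) and Myo5a (0.80, 0.28). For Mab21l2 they were Hcn4 (0.91, 0.76) and Scube1 (0.89, 0.64), for Car3 Sh3rf3 (0.89, 0.73) and Tagln3 (0.85, 0.52), and for Map3k8 Ncald (0.84, 0.62) and Wasf3 (0.84, 0.55). The highest of 12831 correlations is high by selection, and these are given with no test. Of these genes, Myo5a, Zadh2, Scube1 and Tagln3 are among the 25 called lower in the contrast that picked the members.

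The other genes of the members' pathways were taken from 9 lists with 185 genes, of which 158 were measured. In Ing4+/- Ing5-/- against wild-type hearts edgeR called 0 of the 158, against 0.855% of all genes in either direction. Their median log2 fold change was -0.03, against 0.00 over all genes. At the same threshold DESeq2 called 4 (2.06% of all genes) and edgeR on those 2 genotypes alone 9 (3.07%). In Ing5-/- against Ing4+/- hearts edgeR called 0 of the 158 and DESeq2 1. Of the 21 measured partners of Hap1 in huntingtin and motor transport, 17 were below 0 in Ing4+/- Ing5-/- against wild-type hearts, with a median of -0.07. Of all genes 49.2% were below 0 there. Against wild-type, 14 of these partners were also below 0 in Ing4+/- hearts and 15 in Ing5-/- hearts. For the other genes of STRIPAK (20 measured) the median was 0.00, for MAP3K8 signalling (29) 0.04, for the carbonic anhydrases (11) 0.13 and for the MAB21 family (8) 0.01. The medians were -0.06 for ZFHX and atrial rhythm factors (16), -0.07 for GABA metabolism, transport and receptors (19), -0.23 for membrane proteins with leucine-rich repeats (15) and -0.11 for genes of the proepicardium and septum transversum (20).

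Against Ing4+/- hearts, the Ing4+/- Ing5-/- hearts were lower for 4 of the 158 genes by edgeR, with 0.399% of all genes called lower; apart from Hcn4 and Lrrn3 they were named after their values were seen. Gabra4, a GABA receptor subunit, stood at 9.56 ± 2.79 CPM in Ing4+/- and 4.68 ± 1.02 CPM in Ing4+/- Ing5-/- hearts (log2 fold change -1.03 ± 0.19, edgeR adjusted p = 0.0111). Lrrn3, a close relative of Lrrn2, stood at 8.11 ± 1.35 and 4.55 ± 0.628 CPM (-0.83 ± 0.17, adjusted p = 0.0167). Hcn4, the pacemaker channel of the sinoatrial node, stood at 97.2 ± 4.73 and 56.4 ± 14.5 CPM (-0.79 ± 0.17, adjusted p = 0.0395). Flrt3, a membrane protein with leucine-rich repeats, stood at 55.3 ± 5.24 and 40.9 ± 6.40 CPM (-0.44 ± 0.10, adjusted p = 0.0265). In a fit that blocked on litter the edgeR adjusted p was 0.138 for Hcn4, 0.0675 for Lrrn3 and 0.148 for Flrt3, and Gabra4 kept its call. Without Ing4+/- Ing5-/- 2 it was 0.0764 for Hcn4, 0.0747 for Lrrn3 and 0.114 for Flrt3.

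The close relatives of Lrrn2, Zfhx3 and Mab21l2 that were tested were not called against wild-type by edgeR. Lrrn4 had 89.0 ± 5.45 CPM in wild-type hearts and 58.3 ± 8.67 CPM in Ing4+/- Ing5-/- hearts (log2 fold change -0.61 ± 0.30, edgeR adjusted p = 0.466), and ran from 54.8 to 182 CPM in Ing5-/- hearts. Lrrn3 stood at 6.89 and Lrrn1 at 0.824 CPM in wild-type hearts and at 4.55 and 0.572 CPM in Ing4+/- Ing5-/- hearts. Zfhx2 stood at 19.2 and 17.4 CPM and Zfhx4 at 5.67 and 4.19 CPM in the same 2 genotypes, and Mab21l3 at 1.99 and 1.66 CPM.

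Car3 lies between Car1 and Car2 on chromosome 3, with Car13 beside them. Car2, a form found in red blood cells, ran from 75.1 to 100 CPM over the wild-type hearts and from 51.8 to 268 CPM in Ing4+/- Ing5-/- hearts, so it did not share the pattern of its neighbour. Car13 stood at 10.6 and 9.58 CPM in the 2 genotypes. Car1 and Mab21l1 had at most 20 reads in any genotype and were not tested.

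Markers of cell types that a heart sample can hold are given beside these results. The summed level of 18 macrophage markers, none at 0, was 44.9 to 62.9 CPM in wild-type, 52.7 to 61.2 for Ing4+/-, 48.2 to 128 for Ing5-/- and 79.0 to 116 for Ing4+/- Ing5-/- hearts. In Ing4+/- Ing5-/- against wild-type hearts edgeR called 9 of the 18 higher, and 0.855% of all genes in either direction. With litter as a block it called 1 of the 18, and 0.095% of all genes. Sums of 16 erythroid markers were 9170 to 12200 CPM in wild-type, 5010 to 20200 for Ing4+/-, 5800 to 34300 for Ing5-/- and 8050 to 50100 for Ing4+/- Ing5-/- hearts, with 0 called by edgeR. Their median log2 fold change in Ing4+/- Ing5-/- against wild-type hearts was 1.05, with 0 of the 16 below 0. With the haemoglobin level as a covariate the members' log2 fold changes against wild-type ran from -1.15 for Hap1 to -0.57 for Mab21l2. With that covariate edgeR called 12 genes lower, with 4 members, Hap1, Zfhx3, Abat and Lrrn2, among them. Without it, 25 genes were called lower, with all 8 members among them. Sums of 22 epicardium markers, of which 21 passed the filter on low counts, were 1460 to 1560 CPM in wild-type, 1370 to 1560 for Ing4+/-, 1250 to 2720 for Ing5-/- and 1170 to 1310 for Ing4+/- Ing5-/- hearts. The median log2 fold change of the 21 was 0.34 in Ing5-/- against Ing4+/- hearts. In Ing4+/- Ing5-/- against wild-type hearts it was -0.16, with 14 of the 21 below 0. Against wild-type edgeR called 1 of them higher in Ing4+/- Ing5-/- hearts, Krt19, a keratin of epithelia that was named after its value was seen (log2 fold change 0.71, adjusted p = 0.00501).

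Neuron and neural crest markers bear on Hap1, Lrrn2 and Abat, which are known mostly from the nervous system. Their sum over 23 genes was 80.9 to 90.4 CPM in wild-type, 81.9 to 95.1 for Ing4+/-, 86.4 to 97.2 for Ing5-/- and 66.7 to 87.0 for Ing4+/- Ing5-/- hearts. Of these genes 17 passed the filter on low counts. In Ing4+/- Ing5-/- against wild-type hearts edgeR called 0 of the 17, and their median log2 fold change was -0.21. Sums of 22 cardiomyocyte markers were 42900 to 47100 CPM in wild-type, 39400 to 41700 for Ing4+/-, 28500 to 45500 for Ing5-/- and 37900 to 44400 for Ing4+/- Ing5-/- hearts (0 called by edgeR against wild-type, median -0.13 for Ing4+/- Ing5-/- and -0.19 for Ing5-/- hearts). For skeletal and pharyngeal muscle, where Car3 is abundant later in life, 9 of 20 markers passed the filter on low counts and 1 was at 0 in all hearts. The sum over the 20 was 1580 to 1920 CPM in wild-type, 1430 to 1730 for Ing4+/-, 915 to 1870 for Ing5-/- and 1470 to 1840 for Ing4+/- Ing5-/- hearts. Most of these markers failed the filter, so few genes carry the sum, and it does not measure the amount of skeletal muscle. The part of these cell types in the members' levels was not tested.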

How the data were processed

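The authors deposited raw read counts per gene in a table of 16 libraries and in 16 tables of single libraries, together with a gene length in bases (another quantity, used for CPM per kb). Per the submitters' processing notes, bcl2fastq, featureCounts and the mm10 build were used; versions, the aligner, the annotation and the strand setting were not given in the sources used here. Symbols were found for 25275 of 27179 gene IDs, and the library totals are those given in the text.

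In R 4.3.3, edgeR 4.0.16 removed 11394 genes of low count, scaled by TMM (factors 0.967 to 1.08) and fitted a quasi-likelihood model of 4 genotype means to all 16 libraries (common biological coefficient of variation 0.159). Adjusted p-values are Benjamini-Hochberg over all 15785 genes tested, and a gene was called under 0.05. The SE is the log2 fold change over the square root of F. Correlations used log2 CPM with a prior count of 0.5. The fit was tested on simulated data. DESeq2 1.42.0 and limma 3.58.1 (voom) gave alternatives.

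Members and lists were chosen with earlier results of these data known, and the pathway genes and cell markers were written down from general knowledge. Genes named are the 8 members, the 2 most correlated genes of each (mean of at least 1 CPM, no predicted genes), fixed paralogs, and genes of the members' 9 pathway lists called in Ing4+/- Ing5-/- against wild-type or Ing5-/- against Ing4+/- hearts; exceptions are stated, and 1 gene that the rule names is not reported here. Promoter windows came from RefSeq (GRCm38.p6), and overlaps from GENCODE M21. Alternatives were another scaling, filter, tool or set of libraries, litter or replicate number as a block, and Y-linked or haemoglobin levels as covariates.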

Additional observations from a re-analysis of the deposited data

Results flagged for a closer look

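Each member's 4 hearts in each genotype were searched for a heart far from the other 3, which made 32 groups. Abat in Ing5-/- 2 was 69.1 CPM, while the other 3 Ing5-/- hearts lay between 52.9 and 55.4 CPM, so the gap took 0.85 of the range of the group. Car3 in wild-type 3 was 9.03 CPM, while the other 3 wild-type hearts lay between 7.14 and 7.38 CPM, so the gap took 0.871 of the range. The limit was Dixon's 95% critical value, which marks about 1 group in 20 by chance, and it marked 2 of 32 here.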

How the results depend on the processing

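Every one of 27 other settings was a single change of normalization, filter, tool, libraries or covariates. In Ing4+/- Ing5-/- against wild-type hearts the 8 log2 fold changes stayed below 0 in all 27 (Hap1 from -1.29 to -1.10, Abat from -0.68 to -0.55, Mab21l2 from -0.76 to -0.53). In Ing5-/- against Ing4+/- hearts 7 members stayed below 0 in all 27, and Zfhx3 changed sign with litter as a block (-0.006, edgeR adjusted p = 0.995). On those 2 genotypes alone the edgeR adjusted p was 0.409 for Abat and 0.647 for Hap1 and Strip2. The count of all genes called in that comparison, 11, became 20 with no filter, 109 with DESeq2, 4 with limma-voom, 7 with the Y-linked level and 23 with the haemoglobin level as covariate, and 27 without the 3 hearts that stood apart. It was 0 with edgeR on those 2 genotypes alone and with litter as a block, against 1947 genes at an unadjusted p under 0.05 in the fit to all hearts, and 0 to 34 when 1 heart was left out (0 without Ing4+/- 1, Ing4+/- 2 or Ing5-/- 3, 34 without Ing5-/- 4; over 1.5 times apart from 11 for each heart except Ing4+/- Ing5-/- 4 and wild-type 2). The count against wild-type, 135, became 325 with DESeq2, 78 with limma-voom, 465 on those 2 genotypes alone, 15 with litter as a block (13 higher, 2 lower), 315 without the 3 hearts and 37 to 321 when 1 heart was left out (37 without wild-type 3, 321 without Ing5-/- 1; over 1.5 times apart from 135 for these 2, the other 3 wild-type hearts and Ing4+/- Ing5-/- 2, 3 and 4). Of the 4 pathway genes lower than in Ing4+/- hearts, Gabra4 kept its call in all 27 settings, and Hcn4 lost it in 11, Flrt3 in 8 and Lrrn3 in 5. Leaving out 1 heart ended the call of Hcn4 for each Ing4+/- heart, wild-type 1 and Ing4+/- Ing5-/- 2 and 3, of Flrt3 for Ing4+/- 1 and 2 and Ing4+/- Ing5-/- 1, 2 and 3, and of Lrrn3 for Ing4+/- 1 and 4 and Ing4+/- Ing5-/- 2. Genes called lower against wild-type numbered 2 to 159, and the members among them 0 to 8. Pathway genes called numbered 0 to 9 of 158 against wild-type, 0 to 1 in Ing5-/- against Ing4+/- and 1 to 14 in Ing4+/- Ing5-/- against Ing4+/- hearts. Macrophage genes called numbered 1 to 14 of 18. The settings for the pathway and macrophage genes were chosen after seeing the data. Hearts with the same replicate number had residuals correlated above 0.1 in 4 of 24 pairs, so the numbers were not taken as pairs; with a replicate block, 9 and 128 genes were called in the 2 comparisons. The cause of these changes was not tested. Depth limits Car3 and Hap1 most, with as few as 90 and 99 reads in a library.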
